A study of Mus musculus with 2 samples.

Results

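The genes described are the cyclins, the cyclin-dependent kinases (CDKs), their inhibitors and activators, the E2F transcription factors with their pocket protein, and further genes that carry a Cdk or Cdc name. They were chosen by gene symbol alone, leaving out Cdc6, Cdc45 and Cdc42 with its relatives, which gave 67 of the 11484 genes measured, read by 78 probes. Expression was measured on a 1-colour oligonucleotide microarray in 2 samples of mouse cells. Both samples were of embryonic stage and of the strain C57/ICR. The parental cells were at passage 1 in medium with fetal bovine serum, and the small-molecule-generated stem cells were at passage 5 in ES (embryonic stem cell) medium. The labels do not name the small molecule or its dose. The comparison asks how expression in the generated cells differed from that in the parental cells. Passage, medium and treatment changed together and cannot be told apart. The series' design text names 3 replicates of each sample, while each sample had a single column of values here, so no test between the groups was possible and no p-value is given.

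A cell divides when a CDK bound to a cyclin phosphorylates its targets. D cyclins with CDK4 and CDK6 act early in G1 on the pocket proteins of the retinoblastoma family, which then release E2F factors. Freed E2F switches on genes of DNA synthesis, cyclin E among them, and cyclin E with CDK2 drives entry into S phase, whereas INK4 and Cip/Kip inhibitors hold these kinases back. Mouse ES cells are known for a short G1 phase with much cyclin E and CDK2 activity and little of the D cyclins, while fibroblasts pass a G1 phase that depends on mitogens. Cdk1, Cdk4, the B-type cyclins, Cdkn1b, Cdkn2a, Rbl1, Rbl2, Skp2 and the Cks genes were not analysed here.

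In the generated cells Ccnd1, Ccnd2, the inhibitor genes Cdkn2b and Cdkn1c and the growth arrest genes Gadd45a and Gadd45g were 4-fold or more lower. So were Cdk5r1 and Ccng2. The D cyclin gene Ccnd3 went the other way, 2.95-fold higher. The inhibitor genes Cdkn1a and Cdkn3 and the growth arrest gene Gadd45b did not pass 2-fold. Ccne1, Cdc25a and E2f1, genes of the G1 to S transition, were 4-fold or more higher, as was Ccnb1ip1 by its measured average. Ccne2 was lower, but close to the floor. Of the 61 genes above the floor, 13.1% were 4-fold or more lower and 6.56% higher, near the 10.3% and 7.52% of all such genes. Of 14 CDK genes that exceeded the floor, 1 passed 2-fold (Cdk10), against 22.1% higher and 22.6% lower of all genes. Cdk6 had only a bound, and the 1 probe of Cdk2 above the floor was 2.15-fold lower. Promoter sequences of 6 of these genes are shown because they include the gene highest above its parental level (Cdc25a), cyclin E1, its kinase partner Cdk2, and 3 genes among the lowest. They are the 250 bases before the start given by RefSeq (build GRCm38.p6), written 5′ to 3′ on the strand of the gene, in lower case, with the words searched in capitals. For E2F the words were TTTCCCGC, TTTCGCGC, TTTGCCGC and TTTGGCGC. The box bound by NF-Y was searched as CCAAT, and the GC box bound by Sp1 as GGGCGG, each word on both strands.
Ccne1, chr7:38107491-38107740, minus strand: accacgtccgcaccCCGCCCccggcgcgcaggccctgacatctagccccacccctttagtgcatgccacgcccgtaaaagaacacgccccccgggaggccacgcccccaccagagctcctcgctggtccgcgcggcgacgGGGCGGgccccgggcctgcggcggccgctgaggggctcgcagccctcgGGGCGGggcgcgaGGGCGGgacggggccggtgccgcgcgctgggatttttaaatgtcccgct
Cdc25a, chr9:109875329-109875578, plus strand: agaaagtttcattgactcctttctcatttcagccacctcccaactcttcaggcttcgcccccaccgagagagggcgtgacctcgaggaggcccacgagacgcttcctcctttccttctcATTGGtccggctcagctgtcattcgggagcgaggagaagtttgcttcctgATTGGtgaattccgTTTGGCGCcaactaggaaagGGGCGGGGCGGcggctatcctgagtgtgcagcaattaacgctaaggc
Cdk2, chr10:128705052-128705301, minus strand: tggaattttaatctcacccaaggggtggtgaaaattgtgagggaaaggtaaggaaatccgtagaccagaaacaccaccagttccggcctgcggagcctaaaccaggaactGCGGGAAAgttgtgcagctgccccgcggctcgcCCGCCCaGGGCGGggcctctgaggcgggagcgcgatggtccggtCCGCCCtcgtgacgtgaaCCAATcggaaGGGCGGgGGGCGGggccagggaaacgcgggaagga
Cdkn2b, chr4:89311033-89311282, minus strand: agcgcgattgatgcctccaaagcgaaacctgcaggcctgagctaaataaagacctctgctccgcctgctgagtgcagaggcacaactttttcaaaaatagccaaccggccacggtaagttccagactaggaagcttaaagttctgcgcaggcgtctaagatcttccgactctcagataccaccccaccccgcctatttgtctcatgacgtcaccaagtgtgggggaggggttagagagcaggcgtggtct
Gadd45a, chr6:67037408-67037657, minus strand: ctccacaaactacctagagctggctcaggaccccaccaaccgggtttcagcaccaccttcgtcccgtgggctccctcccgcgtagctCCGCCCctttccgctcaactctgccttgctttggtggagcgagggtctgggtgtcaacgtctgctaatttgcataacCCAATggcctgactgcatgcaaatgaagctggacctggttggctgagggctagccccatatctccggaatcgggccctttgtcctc
Gadd45g, chr13:51846425-51846674, plus strand: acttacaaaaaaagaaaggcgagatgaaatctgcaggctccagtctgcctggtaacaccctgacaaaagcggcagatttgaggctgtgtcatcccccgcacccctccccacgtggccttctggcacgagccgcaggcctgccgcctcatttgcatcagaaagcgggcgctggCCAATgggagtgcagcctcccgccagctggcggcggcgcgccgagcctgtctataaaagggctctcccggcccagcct

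RefSeq windows were matched for 49 of the 67 genes, in 59 windows. An E2F word stood in 4 of the 59 windows and in 1.86% of all 32851 windows of that length. Its 4 genes were Cdc25a, with TTTGGCGC starting 67 bases before the start, and Cdk2, E2f3 and E2f7, each with TTTCCCGC on the opposite strand. Of these 4 only Cdc25a was 2-fold or more higher as averaged over its probes, and none was 2-fold or more lower. A CCAAT box stood in 31 of the 59 windows (33.8% of all windows) and a GC box in 34 (32.7% of all windows). No E2F word shared bases with a box of either kind, and 1 window held a CCAAT box that overlapped a GC box. The Ccne1 window held 4 GC boxes, the Cdk2 window 5 and the Cdkn2b window none of the words searched. A match describes letters, and its use by a factor was not measured.

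Values are normalised intensities in arbitrary units, and the level of one gene cannot be set against that of another because probes differ in brightness. Where a gene had several probes, its log2 values were averaged. The 25th percentile of each column, 93.8 in the parental and 93.4 in the generated cells, served as a floor, and a gene that did not exceed it in either sample is written as dim, without a fold. Where only 1 sample exceeded it, the bright value was divided by the floor of the dim sample, which gives a bound ("at least"). A gene was called higher or lower at 2-fold or more, with the log2 difference always generated minus parental. The only error these arrays give is that between probes of the same gene. Over 601 genes with 2 probes above the floor, 1 probe varied around its gene with an SD of 1.05 on the log2 scale, or 2.08-fold. That SD does not cover differences between cultures, and a single-probe gene near 2-fold lies within it.

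The samples carried the markers of their labels in part. Of 10 measured pluripotency genes 9 were higher in the generated cells, with summed levels of 953 and 132682, and Nanog stood at 77.7 and 94.7. All 6 measured fibroblast and mesenchyme genes were lower, with summed levels of 160123 and 894. The macrophage and leukocyte list had 6 measured genes, 3 lower and 1 higher. Lower were C1qa (3198 and 35.7), Fcer1g (1894 and 206) and Cd68 (728 and 310), and Laptm5 was higher (1287 and 12204). The summed levels were 7496 and 13142, most of the latter from Laptm5. Among the other marker lists, 2 of 8 endothelial genes were higher and 2 lower, 3 of 7 epithelial genes were higher and none lower, and 3 of 6 neural genes were higher and 1 lower. The differences below therefore stand beside a change of nearly all markers of pluripotency and mesenchyme measured, and the part of cell type in them was not tested. In samples of whole cultures, fewer cells of a type and less RNA per cell cannot be told apart.

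Of the 67 genes 61 were above the floor in at least 1 sample. Among these, 14 were higher in the generated cells (23.0%) and 11 lower (18.0%), while 36 did not pass 2-fold. Over all 9766 genes above the floor, 22.1% were higher and 22.6% lower, so the shares by themselves are not a result about these genes. Their median log2 difference of 0.14 was also close to the 0.12 of all genes. Their log2 differences ran from -6.90 to 2.60. At 4-fold or more 8 were lower (13.1%) and 4 higher (6.56%), against 10.3% and 7.52% of all genes. At 2 SD of the probe error, 4.31-fold, 8 were lower (13.1%) and 3 higher (4.92%), against 9.59% and 6.77% of all genes. These shares too lay near those of all genes. The 12 genes past 4-fold were Cdk5r1, Cdkn2b, Ccnd2, Cdkn1c, Gadd45a, Gadd45g, Ccng2 and Ccnd1 on the lower side and Cdc25a, Ccne1, E2f1 and Ccnb1ip1 on the higher side.

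**Figure D1:**
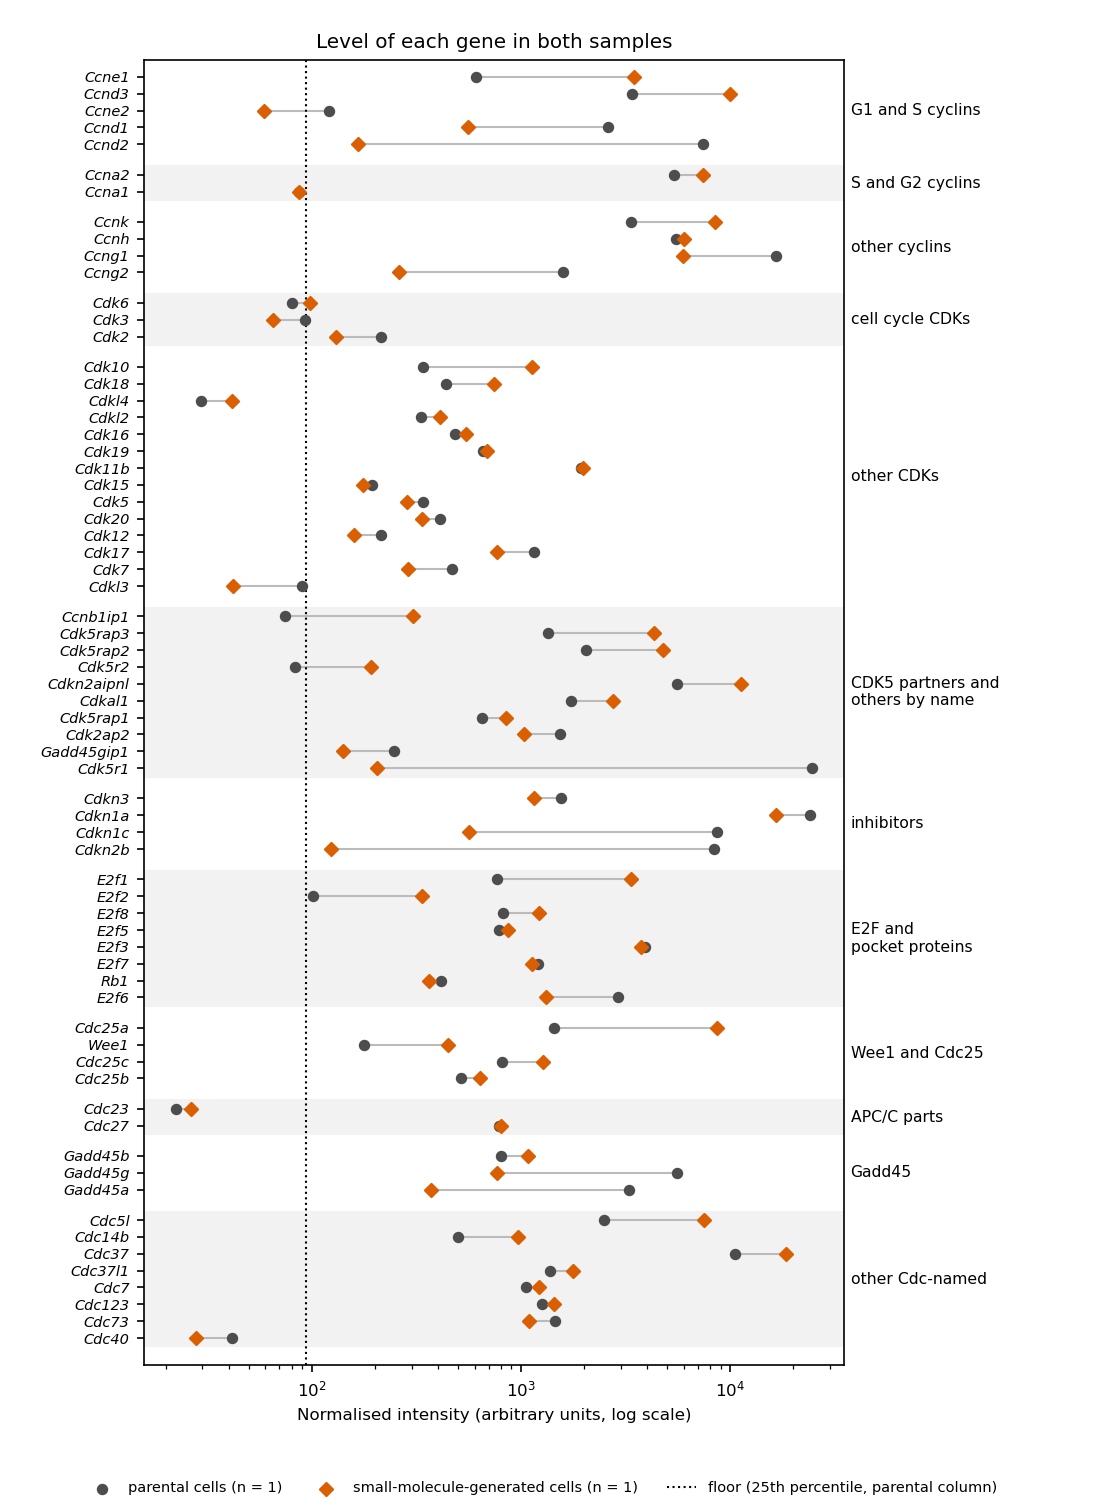
Normalised intensity of each of the 67 genes (log axis, arbitrary units) in the parental cells (circles) and the small-molecule-generated cells (diamonds), 1 sample each, by role, with the floor of 93.8 as a dotted line. Cdk5r1, Cdkn2b and Ccnd2 show the widest gaps toward lower values, and most CDK genes show narrow ones.

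**Figure D2:**
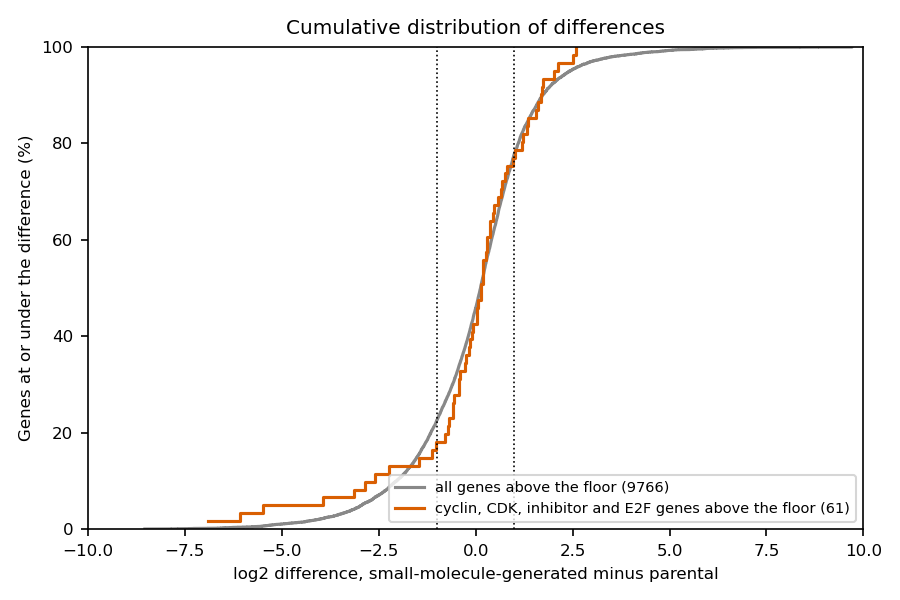
Percentage of genes at or under a given log2 difference (generated minus parental) for the 61 genes above the floor and for all 9766 such genes, with dotted lines at 2-fold. The curves lie close together in the middle; that of the 61 genes lies higher at the far left and ends at 2.60 on the right.

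The D cyclins, which carry mitogen signals to CDK4 and CDK6, split. Ccnd2 was at 7416 in the parental cells and 167 in the generated cells, 44.4-fold lower, and its log2 difference of -5.47 ranked as the 63rd lowest of 9766 genes. Ccnd1 was at 2594 and 555, 4.68-fold lower. Ccnd3 went the other way, from 3388 to 9997, 2.95-fold higher. It was read by 2 probes that gave 4.05-fold (4263 and 17280) and 2.15-fold (2692 and 5784), so both placed it above its parental level. The difference of Ccnd2 was 5.19 times the probe SD, and those of Ccnd1 and Ccnd3 were 2.11 and 2.10 times the SD for their number of probes.

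The E cyclins, partners of CDK2 at the start of S phase, also differed from each other. Ccne1, whose promoter with 4 GC boxes is shown above, was at 610 and 3454, 5.66-fold higher and the 451st highest of all genes. Ccne2 lay close to the floor, at 121 in the parental cells and under it at 59.0 in the generated cells. Its measured log2 difference of -1.03 passed 2-fold, but the bound was only 1.29-fold lower, so its call as lower is not secure. With the D cyclins, 2 of these 5 genes were higher and 3 lower, or 2 lower when dim values are raised to the floor.

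Cyclin A2, which acts with CDK2 in S phase and with CDK1 toward mitosis, lay well above the floor in both samples. Ccna2 was at 5356 and 7387, 1.38-fold higher, which is less than the probe error. Ccna1, the cyclin A gene of the male germ line, was dim at 86.4 in both samples.

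Of 4 cyclins outside the core of the cycle 2 were lower and 1 higher, against 22.6% and 22.1% of all genes. Ccng2, an unconventional cyclin known to be raised in resting cells, was at 1593 and 261, 6.09-fold lower. Ccng1, a direct target of p53, was at 16469 and 5962, 2.76-fold lower and 1.39 times the probe SD. Ccnk, the partner of the transcriptional kinases CDK12 and CDK13, was at 3338 and 8485, 2.54-fold higher. Ccnh, the partner of CDK7, was at 5478 and 6032 and did not pass 2-fold.

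Of 3 measured kinases of the cell cycle proper none passed 2-fold. Cdk2 averaged 213 and 131, 1.63-fold lower, but its probes were unlike in brightness. The bright probe read 1016 and 471, 2.15-fold lower, and the other was under the floor in both samples at 44.8 and 36.2. With the brightest probe alone Cdk2 would thus be called lower. Cdk6, a partner of D cyclins, hardly exceeded the floor, at 80.7 in the parental and 97.7 in the generated cells. Cdk3 was dim, at 92.6 and 65.2.

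Of the 14 other CDK and CDK-like kinases 12 were above the floor. Of these 1 passed 2-fold, against 22.1% higher and 22.6% lower among all genes. It was Cdk10, a kinase with roles in transcription and at the cilium, at 341 and 1124, 3.30-fold higher. Its 2 probes gave 3.46-fold and 3.14-fold, the closest pair among the genes with several probes. Cdk7, the catalytic part of the CDK-activating kinase, was at 467 and 288, 1.62-fold lower. Its 3 probes gave 2.09-fold, 1.86-fold and 1.10-fold lower. Cdk5, a kinase best known from neurons, was at 340 and 284, with a log2 difference of -0.26. The others above the floor were Cdk11b, Cdk12, Cdk15, Cdk16, Cdk17, Cdk18, Cdk19, Cdk20 and Cdkl2, with log2 differences between -0.58 (Cdk17) and 0.77 (Cdk18). Cdkl3 and Cdkl4 were dim. For Cdk12, which phosphorylates RNA polymerase II, 1 probe read 462 and 520, and the other fell short of the floor in the generated cells at 48.9.

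**Figure D3:**
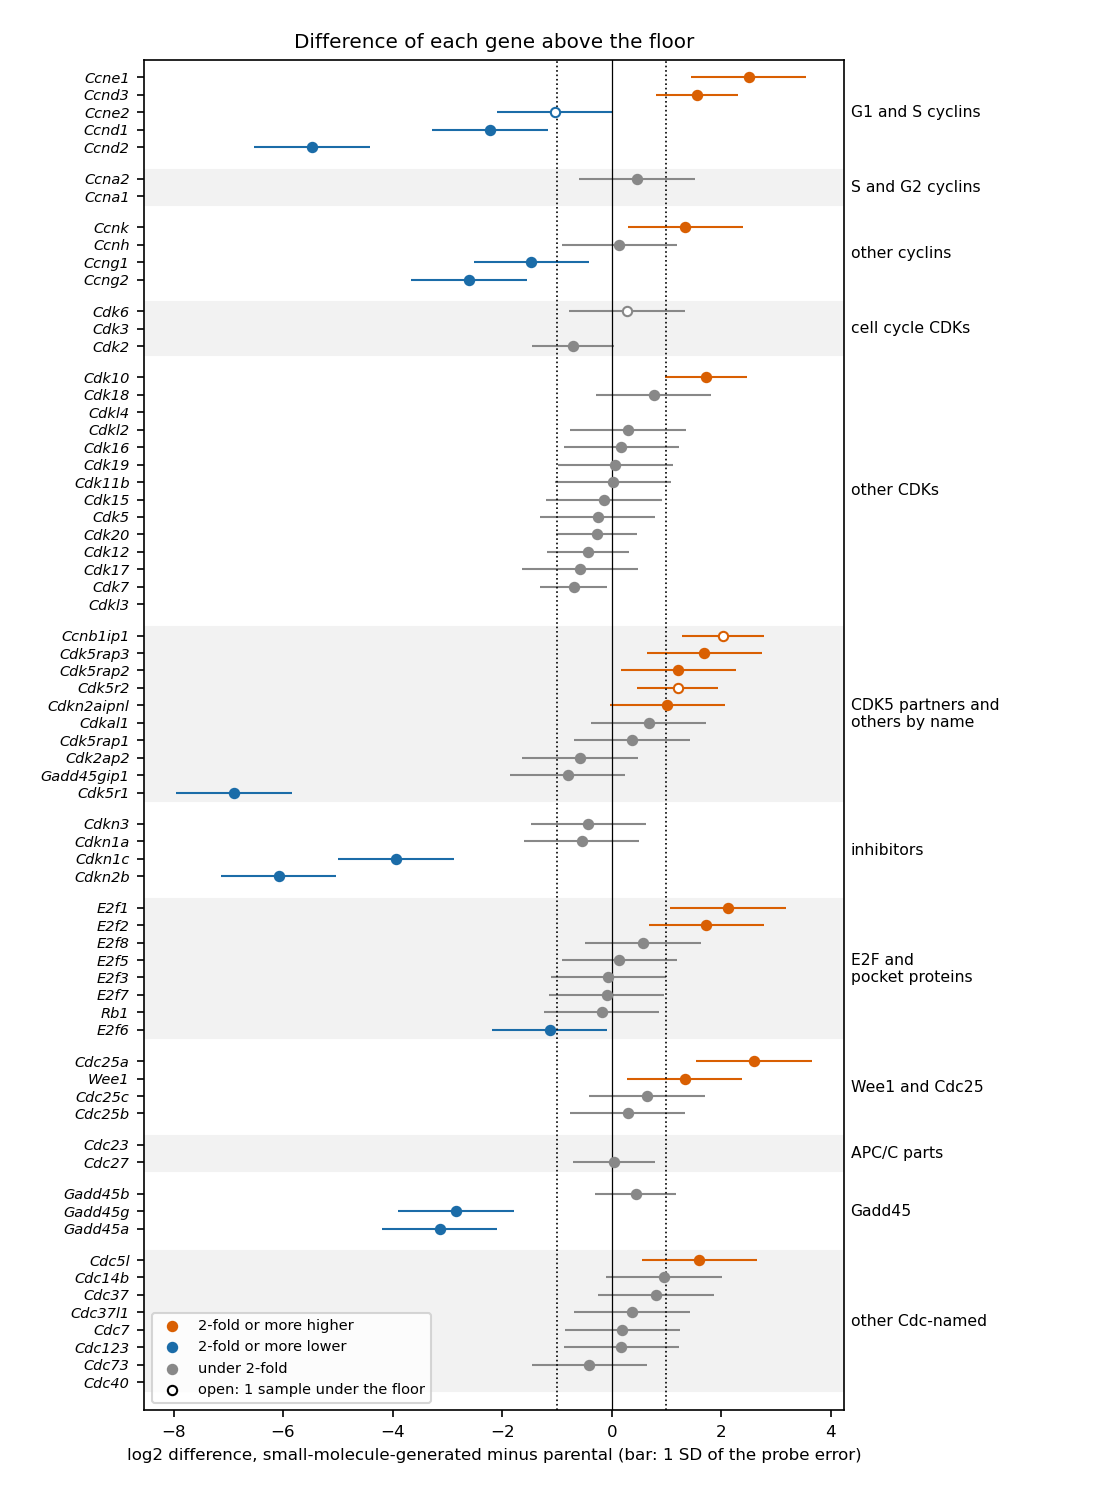
log2 difference (generated minus parental) of each gene above the floor, by role, with bars of 1 SD of the probe error for its number of probes and dotted lines at 2-fold; open points had 1 value under the floor, and dim genes have no point. The 12 other CDKs above the floor lie near 0 except Cdk10. Cdk5r1, Cdkn2b, Ccnd2, Cdkn1c, Gadd45a, Gadd45g, Ccng2 and Ccnd1 lie far to the left. Ccnd3 lies to the right.

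**Figure D4:**
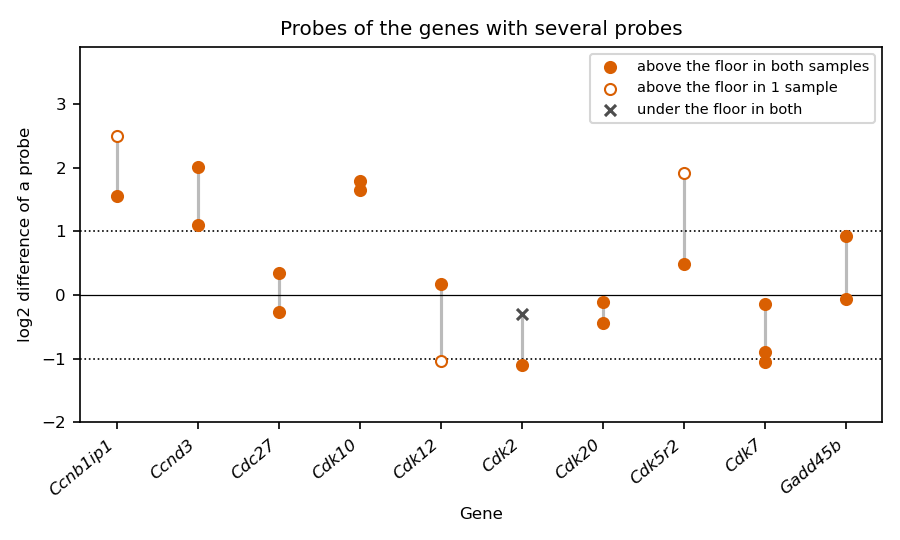
log2 difference (generated minus parental) of each probe for the 10 genes with several probes, filled where both values were above the floor, open where 1 was, and crossed where none was; dotted lines mark 2-fold. In 8 of the 10 genes the probes lie within a span of 1, and those of Cdk5r2 and Cdk12 lie farther apart.

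All 4 measured inhibitors were below their parental level, as were 4472 of the 9766 genes above the floor. Of the 4, 2 were lower by more than 2-fold, against 22.6% of all genes. Cdkn2b, which encodes the INK4 inhibitor p15 and answers to TGF-beta, was at 8316 and 123, 67.6-fold lower and the 39th lowest of all genes. Cdkn1c, which encodes the Cip/Kip inhibitor p57 and is imprinted, was at 8636 and 564, 15.3-fold lower. Cdkn1a, which encodes p21, the inhibitor induced by p53, stayed bright at 24101 and 16492, a 1.46-fold difference within the probe error. Cdkn3 encodes a phosphatase that removes the activating phosphate from CDK2. It was at 1552 and 1154, a 1.34-fold difference also within the probe error. The median log2 difference of the 4 genes was -2.24.

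The Gadd45 genes encode small stress proteins that can restrain CDK1 and act in DNA repair and demethylation. Gadd45a was at 3277 and 372, 8.82-fold lower, and Gadd45g at 5544 and 771, 7.19-fold lower. Both windows printed above held 1 CCAAT box each. Gadd45b averaged 799 and 1081, 1.35-fold higher, and its probes disagreed on direction, with 1 at 685 and 660 and the other at 931 and 1770. Gadd45a and Gadd45g were each read by a single probe, with differences 2.98 and 2.70 times the probe SD.

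Of the E2F factors E2f1 and E2f2, which activate genes of DNA synthesis, were higher. E2f1 was at 768 and 3348, 4.36-fold, and E2f2 at 101 and 335, 3.31-fold with a parental value just above the floor. E2f3, another gene of that class, was at 3897 and 3736 and did not pass 2-fold. E2f6, a repressor that works with Polycomb proteins and without pocket proteins, was at 2898 and 1321, 2.19-fold lower. E2f5, a repressor bound by pocket proteins, was at 788 and 868. The atypical repressors E2f7 (1204 and 1129) and E2f8 (822 and 1221) differed by less than 2-fold. Rb1, the retinoblastoma pocket protein itself, was at 413 and 364, a 1.13-fold difference. The 8 genes had a median log2 difference of 0.04, with 2 higher, 1 lower and 5 under 2-fold.

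Enzymes that set the inhibitory phosphates of CDKs were all above their parental level, as were 5290 of the 9766 genes above the floor. Of the 4, 2 were higher by 2-fold or more, against 22.1% of all genes. Cdc25a, a phosphatase that removes these phosphates at entry into S phase, was at 1431 and 8675, 6.06-fold higher. It was the highest difference of the 61 genes and the 417th highest of all. Its relatives were nearer their parental level, Cdc25b at 518 and 633 (1.22-fold) and Cdc25c at 814 and 1270 (1.56-fold). Wee1, the kinase that opposes them, was at 178 and 449, 2.52-fold higher and 1.27 times the probe SD. Phosphatase and kinase thus lay on the same side, with the probe SD wide enough to cover the difference of Cdc25b and Cdc25c.

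Of the subunits of the anaphase-promoting complex, which marks cyclins for destruction, Cdc27 was at 784 and 806 and Cdc23 was dim. Its 2 probes placed Cdc27 on either side of its parental level, 1.21-fold lower and 1.28-fold higher.

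The lowest of the 61 genes was no regulator of the division cycle. Cdk5r1 encodes p35, the activator of CDK5 known from neurons, and was at 24534 and 206, 119-fold lower and the 16th lowest of all 9766 genes. CDK5 itself did not pass 2-fold, as given above. Its relative Cdk5r2, which encodes p39, averaged 83.5 and 192, a log2 difference of 1.20 that passed 2-fold. That call rested on a probe at 30.8 and 115.8, whose bound against the floor was 1.23-fold, while its other probe read 226 and 319, 1.41-fold. With that bound neither probe passed 2-fold, so the call is not secure. Cdk5rap2, a centrosome protein gene, was at 2047 and 4750, 2.32-fold higher. Cdk5rap3, which takes part in protein modification by UFM1, was at 1341 and 4334, 3.23-fold higher. Cdk5rap1, which encodes a tRNA-modifying enzyme, was at 653 and 846.

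Other genes share a name and not the function. Ccnb1ip1, a ubiquitin ligase gene of meiotic crossing over, was higher. Its brighter probe read 147 and 433, 2.95-fold. The other probe read 37.8, a value short of the floor, and 213, at least 2.27-fold. Its average passed 4-fold only with that value as measured. Cdkn2aipnl was at 5581 and 11286, 2.02-fold higher, the call nearest to the threshold. Cdc5l, a splicing factor gene, was at 2482 and 7525, 3.03-fold higher. Just under the threshold lay Cdc14b, a phosphatase gene, at 499 and 969 (1.94-fold). Cdc37, which brings kinases such as CDK4 to the chaperone HSP90, was at 10533 and 18426 (1.75-fold). Cdc7, the kinase that fires replication origins, was at 1060 and 1213. The rest above the floor were Cdc37l1, Cdc73, Cdc123, Cdkal1, Cdk2ap2 and Gadd45gip1, with log2 differences between -0.80 (Gadd45gip1) and 0.67 (Cdkal1). Cdc40 was dim.

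Around these genes, 7 lists of the wider pathway were read in the same way, and each count is to be read against the 22.1% higher and 22.6% lower among all genes above the floor. The lists were chosen with earlier results of these data known, so their counts are a description and no independent support. Of 22 measured S phase targets of E2F 21 were above the floor. Of these 14 were higher and none lower, with a median log2 difference of 1.64 against 0.12 for all genes. The replicative polymerase gene Pold1 (316 and 3106, 9.82-fold), the origin recognition gene Orc1 (152 and 1403, 9.22-fold) and the chromatin remodeller gene Hells (1300 and 10798, 8.31-fold) led it. They stood on the same side as E2f1, E2f2, Ccne1 and Cdc25a. E2f3, E2f5, E2f7 and E2f8 did not pass 2-fold, E2f6 was lower, and Ccne2 was lower without a secure call. A link between these genes and the list was not tested. Of 6 measured partners of E2F and the DREAM complex 5 were above the floor and 2 were higher, Mybl2 by at least 4.56-fold (52.9 and 428) and Sin3a by 2.63-fold (1273 and 3350). Of 19 measured G2/M genes 3 were higher and 3 lower (median 0.12), neither count above those shares, and Ccna2 and Cdc25c were also under 2-fold. Pttg1, which encodes securin, was 4.24-fold higher (1187 and 5033), Espl1 2.94-fold (1731 and 5096) and Fzr1 2.67-fold (923.5 and 2463). Cenpe, a kinetochore motor gene, was at least 2.55-fold lower (238 and 49.7), Mki67 2.50-fold (2014 and 807) and Aurkb 2.26-fold (776 and 343).

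Of 8 measured inputs to the D cyclins 5 were lower and 1 higher, with a median of -2.55. The immediate early factor gene Egr1 was 90.4-fold lower (17504 and 194), the growth factor receptor gene Egfr 41.8-fold lower (4904 and 117) and the kinase gene Akt1 10.2-fold lower (5659 and 553), while Mycn was 11.2-fold higher (157 and 1758). Of 18 measured regulators of the locus of Cdkn2b 8 were lower and 4 higher, or 3 higher with dim values raised to the floor (median -0.71), against 22.6% lower and 22.1% higher among all genes. Ets1, an activator of INK4 genes, was 33.4-fold lower (4373 and 131). The Polycomb gene Rnf2 was 6.29-fold lower (1050 and 167) and Id2 4.82-fold lower (1139 and 236). The part of these genes in the level of Cdkn2b was not tested. The Polycomb genes Cbx7 (260 and 6686, 25.7-fold), Eed (2894 and 9895, 3.42-fold) and Ezh2 (2239 and 5517, 2.46-fold) were higher. Suz12, also a Polycomb gene, was 2.04-fold lower (2037 and 1001), and Cbx2, Cbx8 and Ring1 did not pass 2-fold. The Polycomb genes of the list thus went both ways.

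Of 12 measured checkpoint and p53 genes 3 were higher and 3 lower (median 0.41), close to the 22.1% and 22.6% of all genes. The lower genes were Plk2 by 14.3-fold (8292 and 581), Trp53inp1 by 4.48-fold (626 and 140) and Rprm by 3.44-fold (387 and 112). The higher genes were Sfn, the 14-3-3 sigma gene, by 38.2-fold (313 and 11959), Trp53bp1 by 6.31-fold (1111.5 and 7014) and Perp by 3.81-fold (608 and 2317). Mdm2 did not pass 2-fold (3543 and 4550), so the list showed no common direction. Of 16 measured CDK regulators outside the name rule 6 were higher and 2 lower (median 0.69), against 22.1% and 22.6% of all genes. Pkmyt1, a sister kinase gene of Wee1, was 5.39-fold higher (627 and 3380), and Ccnf, the F-box cyclin gene, 5.50-fold higher (2385 and 13120). Ccno, an atypical cyclin gene, was at least 7.02-fold higher (62.9 and 658). The ubiquitin ligase subunit gene Rbx1 was 4.18-fold lower (3291 and 787).

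**Figure D5:**
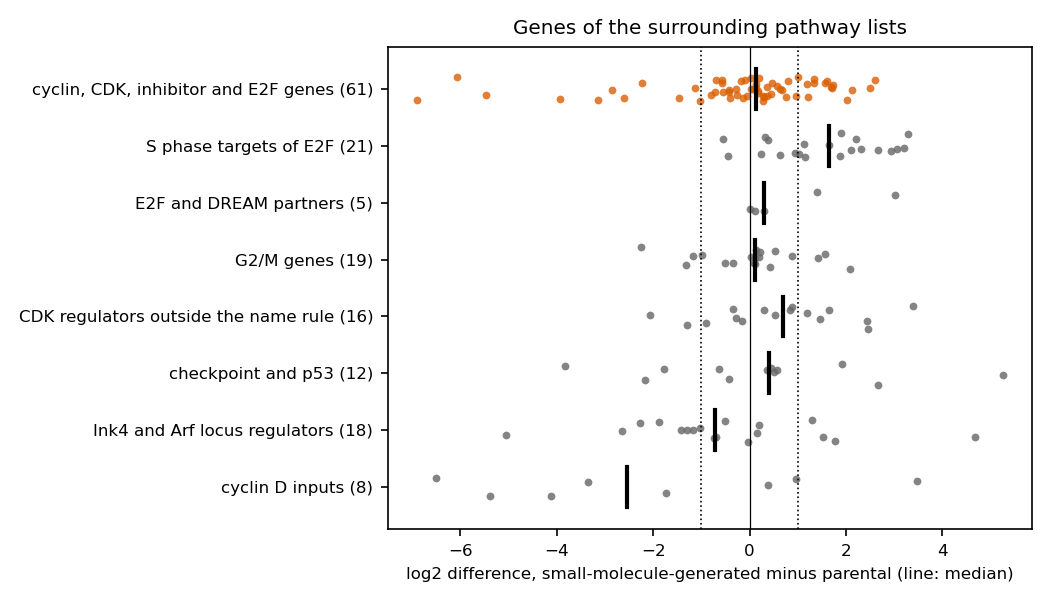
log2 difference (generated minus parental) of each gene above the floor in the cyclin, CDK, inhibitor and E2F genes and in the 7 lists around them, with the number of genes in brackets, medians as black lines and dotted lines at 2-fold. The S phase targets of E2F have a median of 1.64 and the inputs to the D cyclins one of -2.55, with the 61 genes between them at 0.14.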

How the data were processed

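Total RNA was extracted with Trizol, purified on RNeasy columns, amplified to antisense RNA, labelled with Cy5 and read on a OneArray v2 of Phalanx (mouse, whole genome), per the labels' protocols. The authors deposited a linear intensity for each probe, taken here as normalised because the quantiles of both columns nearly coincide. Background correction, normalisation and filtering, and the relation of the 3 replicates in the design text to the columns, were not given in the sources used here. Values ran from 15 and 16 to 65495 and 65494 with near-equal medians, which would hide a difference in total signal.

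Of 13989 probes 12380 had 1 symbol in the platform annotation, none had several and 1609 were unnamed; 12364 symbols were updated through Entrez identifiers with a RefSeq table (GRCm38.p6). The rule on names was applied to the platform's symbols. log2 intensities were averaged per gene with pandas 2.3.3 in Python 3.11.15. With 1 sample per group no test was made, and precision is limited by the number of arrays. The computation was tested on simulated data. The genes, the lists and the rule for naming genes were chosen with earlier results of these data known. Every gene at 2-fold or more is given with both values, as are the A, D and E cyclins, Cdk2, Cdk3, Cdk5 and Cdk6, the inhibitors, E2F, Rb1, Wee1, Cdc25 and Gadd45 genes whatever their difference, other genes above the floor at least by name with a range, and up to 3 genes each way from a list. Of 12 alternative settings, 10 were planned and 2 were chosen after seeing the data.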

Additional observations from a re-analysis of the deposited data

How the results depend on the processing

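Of the 25 genes called higher or lower, 20 kept their call in all 10 alternatives that used the 2-fold rule, and none changed sign in any of them. Several of these settings could hardly have changed a call. A lower floor or no filter only lets in further genes, and quantile normalisation met columns whose quantiles nearly coincide. The kept signs were thus largely fixed in advance. Ccne2 and Cdk5r2 lost it under an offset of 50 and a floor at the median, Ccne2 also with dim values raised to the floor (log2 difference -0.37) and Cdk5r2 also with the brightest probe alone (0.49). Cdkn2aipnl lost it when differences were centred on the median (0.89) or by lowess (0.85), Ccnb1ip1 became dim with a floor at the median, and E2f6 missed 2-fold narrowly when the 3 classes of probe identifiers were centred, a setting chosen after seeing the data. Centring on the median moved all genes by 0.12, the median over genes above the floor, which is too little to turn the sign of a called gene.

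The median of the D and E cyclins moved from -1.03 to -0.33 with the floor at the median, which drops Ccne2, and to -0.37 with dim values raised to it. At 4-fold, 4 of the 61 genes were higher, and at 2 SD of the probe error (4.31-fold, chosen after seeing the data) 3 were, with 8 lower under each rule. In the lists, 8 and then 7 S phase targets, 1 and 1 partners of E2F, 1 and 0 G2/M genes, 3 and 3 CDK regulators and 1 and 1 regulators of the Cdkn2b locus were higher under these 2 rules, and 1 and 1 G2/M genes, 1 and 0 CDK regulators and 3 and 3 regulators of the Cdkn2b locus were lower. The stricter rules shorten counts by construction. No paired analysis was possible because each group had 1 sample and the result came from no test. For genes near the floor, such as Cdk6 and Ccne2, the size of the difference has only a bound, and Ccna1 was dim in both samples.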

Other observations

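Of the replication genes left out by the rule on names, Cdc45, part of the replicative helicase, was 2.07-fold higher in the generated cells (1080 and 2240), on the side of the S phase targets of E2F. Cdc6, which loads that helicase, was dim at 45.9 and 58.2.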
